A study of Mus musculus with 23 samples.

Results

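The 44 collagen genes of the mouse were examined in the transcriptomes of 23 PyMT mammary tumors. They were all protein-coding genes whose symbol consists of Col, a number, the letter a and a number and that had at least 1 read, and they stand among 27483 genes with a read and 47643 genes listed. Tumors came from female mice on a C57BL/6 background that carried the polyoma virus middle T oncoprotein (PyMT), which makes mammary carcinomas, and every group below carried it. In the neutralization experiment, PyMT WT mice received a human IgG1 isotype control (5 tumors) or the anti-IL-38 antibody e04 (6 tumors) from a first tumor of 0.6 cm. In the γδ TCR experiment, treatment began at 13 weeks of age. It comprised PyMT WT mice with IgG (4 tumors), PyMT IL-38 KO mice with IgG (4 tumors), and PyMT IL-38 KO mice with anti-γδ TCR antibodies (4 tumors). The anti-γδ TCR antibody blocks signaling of the receptor, and injections were weekly over 5 weeks in every group.

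Collagens are secreted or membrane-bound proteins whose chains wind into a rope-like helix. Fibrillar collagens (types I, II, III, V, XI, XXIV and XXVII) form the tensile fibers of connective tissue, and types I, III and V are the products of stromal fibroblasts. Type IV collagen is the sheet beneath epithelium and endothelium, type VI forms beaded filaments around cells, and FACIT collagens such as types IX, XII, XIV and XVI sit on the surface of fibrils. Types XV and XVIII are multiplexins of vessel and epithelial basement membranes, type VIII forms short-chain networks, type VII anchors the basement membrane to the stroma, and types XIII, XVII, XXIII and XXV span the cell membrane. In mammary carcinoma the fibrillar stroma around the tumor cells is dense, whereas the basement membrane chains surround ducts and vessels.

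Each library held between 6273049 and 15879164 reads assigned to genes. Values below are the reads of a gene in each 1000000 of these (CPM) where groups are set side by side. 3 reads, the upper limit for a gene with no read, are 0.189 to 0.478 CPM. Reads come from the 3′ end of a transcript and are not divided by length, so levels are compared between tumors and not between genes. Il1f10, which encodes IL-38, had 0 reads in all 23 libraries, so the knockout could not be checked from it. Luminal epithelial markers summed to 1510 to 3931 CPM in every tumor. KO + IgG replicate 4 and all 4 KO + anti-γδ TCR libraries stood apart from the other 18. They had 1.31 to 1.98% of reads on processed pseudogenes against 0.0943 to 0.191%, and 6273049 to 8794202 reads against 10138353 or more. The single gene Gm42418 took 11.3 to 20.1% of their reads against 2.62 to 5.70%. Its reads are part of the total that CPM divides by, which lowers the CPM of other genes in those libraries. Their macrophage marker sum was 570 to 919 CPM against 1393 to 2876 CPM. Results that involve replicate 4 of KO + IgG were therefore also computed without it.

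Collagens took 0.277 to 1.15% of the reads of a tumor, and fibrillar chains made up 70.3% of the collagen reads (53.1 to 80.1% per tumor). Summed over all 44 genes, the level was 4101 ± 1487 CPM (SD, n = 5) with isotype control, 5003 ± 1405 (n = 6) with anti-IL-38, 5394 ± 1734 (n = 4) in WT + IgG, 5903 ± 98.8 (n = 4) in KO + IgG and 6483 ± 3343 (n = 4) in KO + anti-γδ TCR. The spread within groups was unequal. The 4 KO + IgG tumors ranged from 5789 to 6008 CPM, while 1 KO + anti-γδ TCR tumor, replicate 4, stood at 11490 CPM and the other 3 between 4589 and 5037 CPM. That tumor also had the highest sum of fibroblast markers that are not collagens (1544 CPM against 293 to 1373 CPM in all others) and of skeletal muscle markers (790.3 CPM). In these tumor extracts, fewer cells of a type and less RNA per cell cannot be told apart.

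**Figure D1:**
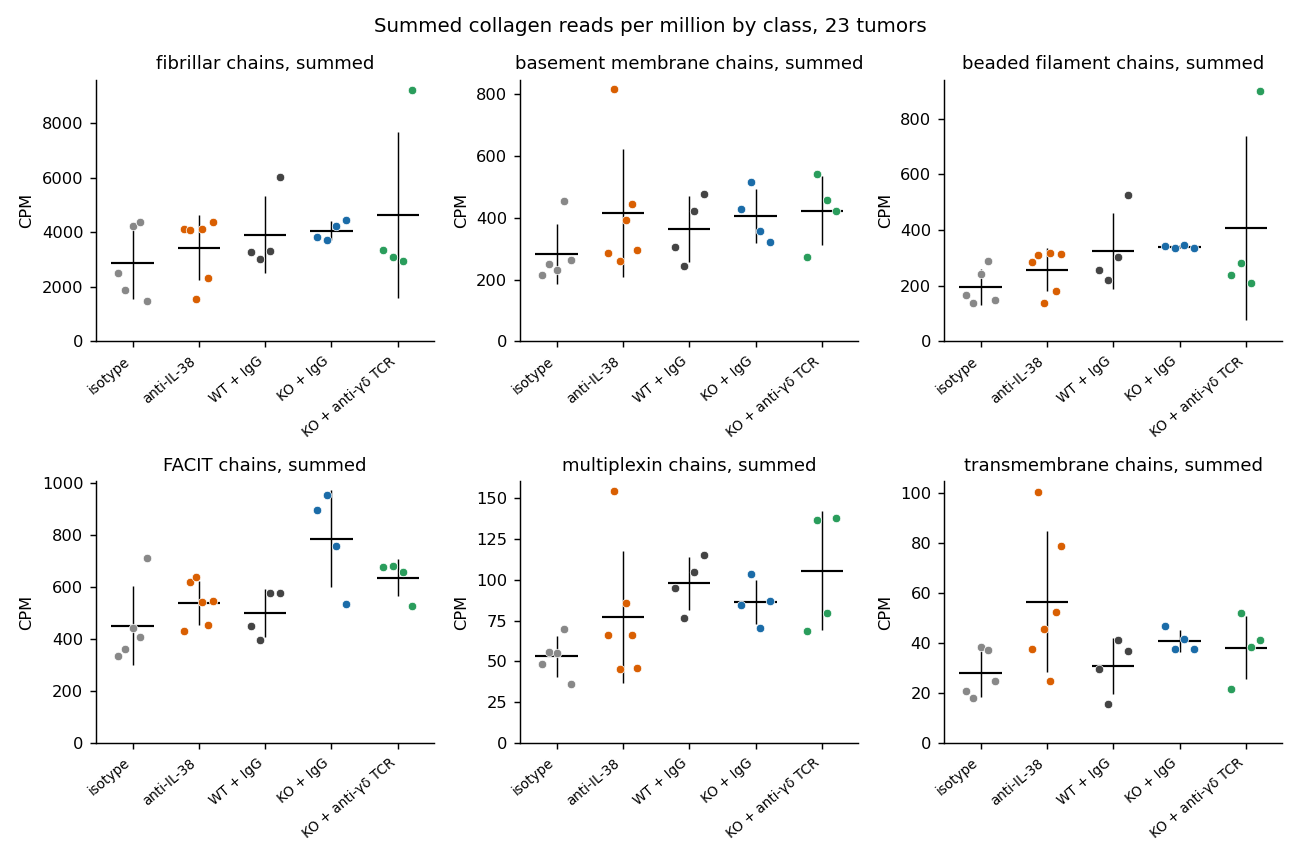
Summed CPM (y axes, linear from 0) of 6 collagen classes in each of 23 tumors (points) by group (x axis), with the mean (bar) and SD (line). Replicate 4 of KO + anti-γδ TCR is the highest point for fibrillar (9200 CPM) and beaded filament chains, while FACIT chains reach 956 CPM in KO + IgG.

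Among the fibril formers, Col1a1, the α1 chain of type I collagen, was at 556, 582, 916, 1165 and 383 CPM in the isotype control tumors and 384 to 1254 (median 1008) CPM with anti-IL-38. It was at 815, 746, 812 and 1569 CPM in WT + IgG, 915, 907, 1074 and 1016 CPM in KO + IgG and 927, 616, 692 and 2606 CPM in KO + anti-γδ TCR. Isotype replicate 5 and anti-IL-38 replicate 3 were low and WT + IgG replicate 4 and KO + anti-γδ TCR replicate 4 high, and the groups overlapped. Its partner chain Col1a2 read 1203, 661, 1868, 1836 and 504 CPM with isotype control, 676 to 1859 (median 1767) CPM with anti-IL-38, 1222, 1000.5, 1272 and 2736 CPM in WT + IgG, 1703, 1424, 1628 and 1869 CPM in KO + IgG and 1391, 1136, 1227 and 3893 CPM in KO + anti-γδ TCR. Col3a1, the chain of type III collagen that joins type I in soft tissue, read 530.0, 439, 781, 763 and 237 CPM with isotype control, 296 to 970.3 (median 886) CPM with anti-IL-38, 876, 960.0, 884 and 1319 CPM in WT + IgG, 882, 989, 1171 and 1227 CPM in KO + IgG and 736, 790.2, 571 and 2184 CPM in KO + anti-γδ TCR. Isotype replicate 5 was the lowest tumor and KO + anti-γδ TCR replicate 4 the highest for both genes, as for Col1a1. For Col3a1 in CPM all 8 tumors of WT + IgG and KO + IgG were above every isotype control tumor, a difference that coincides with the experiment. KO + anti-γδ TCR tumors, of the same experiment as these 8, overlapped the isotype control tumors, and groups within an experiment overlapped.

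Type V collagen starts type I fibrils and sets their width. Col5a1 read 40.2, 42.1, 62.2, 76.8 and 29.4 CPM with isotype control, 25.1 to 77.3 (median 63.8) CPM with anti-IL-38, 54.8, 60.2, 55.8 and 93.4 CPM in WT + IgG, 52.3, 58.9, 77.3 and 69.2 CPM in KO + IgG and 60.3, 63.9, 45.4 and 133 CPM in KO + anti-γδ TCR. Col5a2 read 72.6, 47.5, 85, 88.1 and 25.5 CPM with isotype control, 49.7 to 126 (median 100.3) CPM with anti-IL-38, 106, 73.9, 97.1 and 124 CPM in WT + IgG, 90.3, 106, 134 and 143 CPM in KO + IgG and 73.8, 93.1, 92.9 and 194 CPM in KO + anti-γδ TCR. Both chains followed the pattern of type I, with KO + anti-γδ TCR replicate 4 highest, anti-IL-38 replicate 3 lowest for Col5a1 and isotype replicate 5 lowest for Col5a2. The remaining type V chain, Col5a3, ranged from 10.3 to 59.4 CPM over the 23 tumors.

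The other fibril formers are known mostly from cartilage and other special matrices. Col11a1, which joins fibrils of types II and V, ranged from 70.9 to 467 CPM and was highest in isotype replicates 3 (467 CPM) and 4 (326 CPM) and in KO + anti-γδ TCR replicate 2 (344 CPM). Col2a1, the main fibril chain of cartilage, ranged from 0.0722 to 44.1 CPM. Cartilage markers stayed near 0 (Acan at most 1.09, Matn1 0.289, Matn3 0.546 and Hapln1 0.197 CPM), apart from Sox9 at 342 to 1002 CPM and from Comp. Comp read 33.0 CPM in isotype replicate 5 and 23.8 CPM in anti-IL-38 replicate 3 against at most 5.29 CPM in the others. Col27a1 ranged from 3.88 to 34 CPM, Col11a2 from 0.464 to 11.2 CPM and Col24a1 from 0 to 2.94 CPM. Col24a1 was the member with the largest share of its variance between the 5 groups (63.5%), at 1.71 to 2.94 CPM with isotype control and 0 to 0.796 CPM in KO + anti-γδ TCR, where the limit of 3 reads is 0.341 to 0.478 CPM. Those low values are 0 to 7 reads. KO + IgG replicate 4, of the libraries that stood apart, had 3 reads against 12 to 25 in replicates 1 to 3. The next largest share was that of Col16a1 (61.4%).

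**Figure D2:**
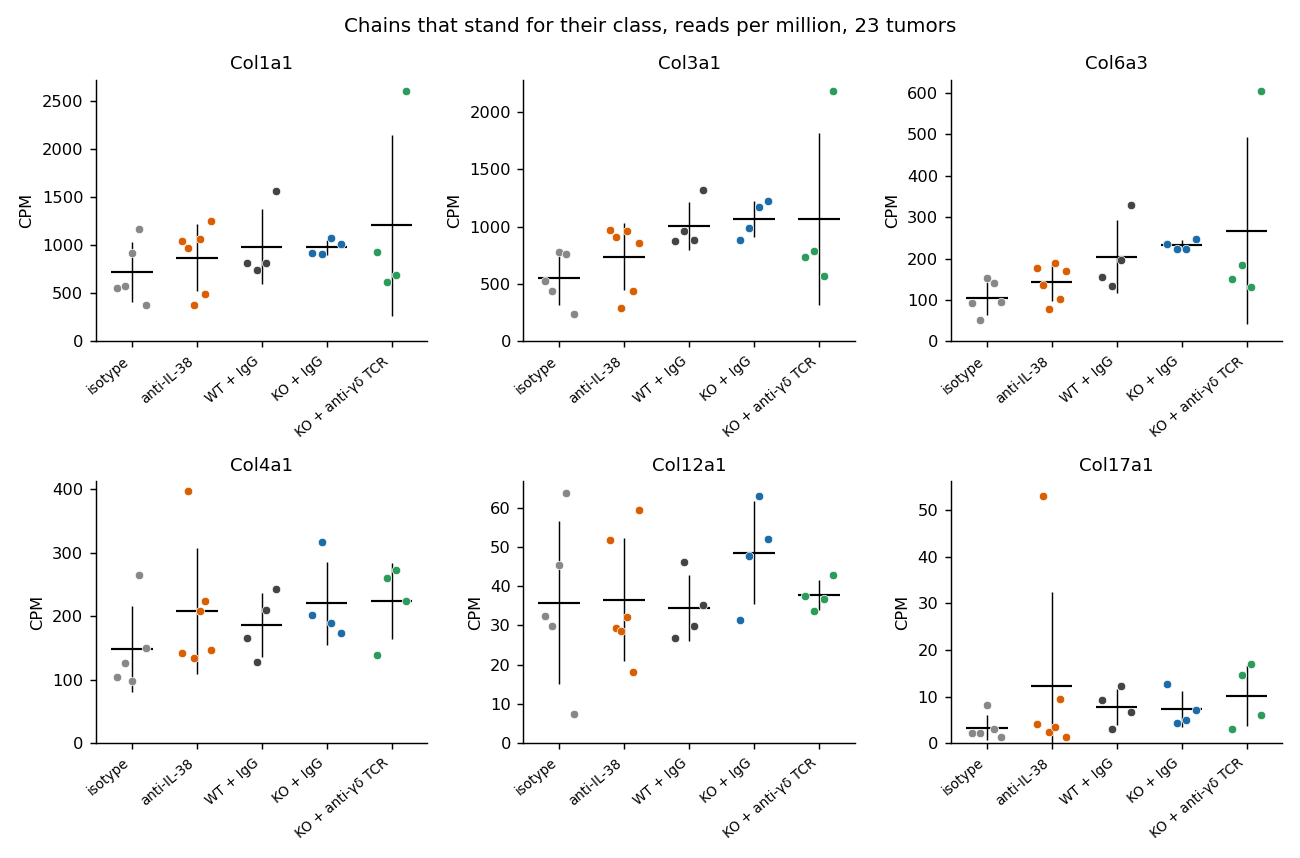
CPM (y axes, linear from 0) of 6 chains in each of 23 tumors (points) by group (x axis), with the mean (bar) and SD (line, drawn only above 0). KO + anti-γδ TCR replicate 4 is at 2606 CPM for Col1a1, 2184 CPM for Col3a1 and 604 CPM for Col6a3, and anti-IL-38 replicate 2 is the top point for Col4a1 (397 CPM) and Col17a1 (53.1 CPM).

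Beaded filament chains, like the fibrillar ones, were highest in KO + anti-γδ TCR replicate 4. Col6a1 read 35.1, 30.7, 28.6, 59.4 and 18.3 CPM with isotype control, 25.9 to 79.3 (median 38.8) CPM with anti-IL-38, 31.8, 28.9, 30.8 and 54.3 CPM in WT + IgG, 29.6, 36.6, 44.6 and 31.7 CPM in KO + IgG and 27.6, 32.5, 27.3 and 104 CPM in KO + anti-γδ TCR. Col6a2 read 36.9, 55.6, 58.1, 84.7 and 31 CPM with isotype control, 31 to 88.8 (median 69.3) CPM with anti-IL-38, 63.1, 53.9, 70.3 and 135 CPM in WT + IgG, 74.6, 71.4, 74.1 and 54.1 CPM in KO + IgG and 57.1, 59, 43 and 184 CPM in KO + anti-γδ TCR. Replicate 4 was the highest tumor of both its groups, WT + IgG and KO + anti-γδ TCR. Col6a3, the long chain that carries the filament's end domains, read 91.8, 51, 153, 141 and 94.2 CPM with isotype control, 78.7 to 189 (median 154) CPM with anti-IL-38, 156, 135, 196 and 331 CPM in WT + IgG, 235, 224, 223 and 248 CPM in KO + IgG and 150.3, 185, 132 and 604 CPM in KO + anti-γδ TCR. Groups overlapped for Col6a1 and Col6a2, while every KO + IgG tumor was above every isotype control and anti-IL-38 tumor for Col6a3. WT + IgG and KO + anti-γδ TCR tumors overlapped both of these groups for Col6a3. Between KO + IgG and the neutralization tumors, experiment and genotype cannot be told apart. The chains that can take its place were rare, with Col6a4 at 0 to 1.01, Col6a5 at 0 to 2.52 and Col6a6 at 0.252 to 6.06 CPM.

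Basement membrane chains had their own highest tumor, anti-IL-38 replicate 2. Col4a1, with Col4a2 the common type IV pair, read 104, 127, 97.7, 265 and 150.1 CPM with isotype control, 135 to 397 (median 177) CPM with anti-IL-38, 166, 127, 209.6 and 243 CPM in WT + IgG, 203, 317, 189 and 174 CPM in KO + IgG and 139, 259.8, 274 and 224 CPM in KO + anti-γδ TCR. Col4a2 read 68.5, 81.4, 63.8, 143 and 88.4 CPM with isotype control, 66.2 to 293 (median 109) CPM with anti-IL-38, 86.5, 60, 139 and 160.3 CPM in WT + IgG, 134, 132, 88 and 79.3 CPM in KO + IgG and 82.8, 172, 114 and 124 CPM in KO + anti-γδ TCR. Anti-IL-38 replicate 2 also had the highest sum of basal and myoepithelial markers (1961 CPM against 85.6 to 1189.8 CPM in the others). Its luminal epithelial marker sum, 3931 CPM, was the highest too. Fibroblast markers that are not collagens summed to 1373 CPM, below only KO + anti-γδ TCR replicate 4 (1544 CPM). The part of these markers in the collagen levels was not tested. The rarer type IV chains ranged from 0 to 1.4 CPM for Col4a3, 1.59 to 7.31 CPM for Col4a4, 15.5 to 69.6 CPM for Col4a5 and 6.63 to 67.4 CPM for Col4a6.

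Of the FACIT chains, Col12a1, which binds type I fibrils under load, read 32.3, 30, 45.5, 63.8 and 7.37 CPM with isotype control, 18 to 59.3 (median 30.7) CPM with anti-IL-38, 26.8, 46.1, 29.9 and 35.1 CPM in WT + IgG, 31.4, 47.8, 62.9 and 52.1 CPM in KO + IgG and 37.5, 33.6, 36.8 and 42.8 CPM in KO + anti-γδ TCR. Col14a1, its close relative in dense connective tissue, read 31.8, 32.7, 69.9, 42.8 and 21.8 CPM with isotype control, 16.6 to 99.3 (median 59.6) CPM with anti-IL-38, 54.9, 38.8, 49.9 and 69.1 CPM in WT + IgG, 56.8, 49.1, 47.7 and 46.1 CPM in KO + IgG and 44.9, 54.1, 62 and 77.9 CPM in KO + anti-γδ TCR. Isotype replicate 5 and anti-IL-38 replicate 3, low in fibrillar chains, were not low in type IX collagen, with 371 and 362 CPM of Col9a1, the highest of all tumors. Col9a2 ranged from 28.3 to 176 CPM and Col9a3 from 20.8 to 111 CPM, with isotype replicate 5 next to highest for the former and highest for the latter. Col20a1 ranged from 0 to 1.02 CPM, Col22a1 from 0 to 0.189 CPM, and Col19a1 had reads in 2 tumors.

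Col8a1, a chain of the short-chain network made by vessel and stromal cells, read 139, 158, 213, 261 and 69.1 CPM with isotype control, 124 to 271 (median 188) CPM with anti-IL-38, 155, 109.5, 109 and 139 CPM in WT + IgG, 117, 155, 188 and 154 CPM in KO + IgG and 136, 188, 153 and 213 CPM in KO + anti-γδ TCR. Col8a2 ranged from 6.26 to 30.2 CPM, and Col10a1, known from growth plate cartilage, from 0 to 4.3 CPM. Among multiplexins, Col18a1, the precursor of endostatin, read 23.1, 27.9, 37.5, 43.1 and 22.1 CPM with isotype control, 19.3 to 103 (median 36.5) CPM with anti-IL-38, 61.7, 42.1, 61 and 44 CPM in WT + IgG, 35.1, 59.1, 37.2 and 50.9 CPM in KO + IgG and 39.3, 101, 60.1 and 61.6 CPM in KO + anti-γδ TCR. Col17a1, a hemidesmosome chain of basal epithelial cells, read 2.1, 2.17, 8.13, 2.99 and 1.27 CPM with isotype control, 1.38 to 53.1 (median 3.76) CPM with anti-IL-38, 9.22, 3.04, 12.3 and 6.67 CPM in WT + IgG, 12.8, 4.4, 4.98 and 7.08 CPM in KO + IgG and 3.12, 14.7, 16.9 and 6.14 CPM in KO + anti-γδ TCR. Anti-IL-38 replicate 2 was the highest tumor for both, and elsewhere the groups overlapped. Col13a1 ranged from 1.03 to 8.95 CPM with the least variance between groups (3.39%), and Col26a1 and Col28a1, which belong to none of these classes, stayed at 0 to 0.361 and 0 to 0.693 CPM. In all, 38 of the 44 genes reached a mean normalized count of 5 in at least 1 comparison and were tested, and 6 (Col6a4, Col19a1, Col20a1, Col22a1, Col26a1 and Col28a1) did not.

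Neutralization of IL-38 asks what the antibody changed in WT tumors. Of the 36 collagens tested between 6 anti-IL-38 and 5 isotype control tumors, 0 passed an adjusted p of 0.05 in limma, as did 0% of all 16002 genes tested, and 0 collagens passed in edgeR or DESeq2 (0 and 0.469% of all genes). At an unadjusted p under 0.05, 4 collagens were higher and 0 lower, against 5.61% of all genes higher and 4.91% lower. The median log2 difference of the 36 was 0.35, with 27 above 0, beside a median of 0.0019 over all genes, of which 50.2% lay above 0. It ranged from 0.26 to 0.53 when 1 library was left out, the highest being without isotype replicate 4. No collagen separated the groups without overlap, which 0.4% of all genes did upward and 0.644% downward.

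The 4 members with the smallest p were chains of the basement membrane, the cell membrane and type V fibrils. Col4a5, a type IV chain of kidney, skin and smooth muscle basement membranes, was at 21.7, 19.7, 26.8, 17.4 and 15.5 CPM with isotype control and at 22.8 to 69.6 (median 32.2) CPM with anti-IL-38. Every anti-IL-38 tumor was above 4 of the 5 control tumors, replicate 2 was far above the rest, and the groups overlapped. The mean was 485 ± 227 against 255 ± 58.8 normalized counts (SD, n = 6 and 5), a log2 difference of 0.84 ± 0.26 (SE) with an adjusted p of 0.412 in limma and an exact permutation p of 0.0195, two-sided, for this gene alone.

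Col23a1, a transmembrane collagen of epithelial cells, was at 7.07, 4.76, 4.1, 6.58 and 1.04 CPM with isotype control and at 3.8 to 32.4 (median 9.94) CPM with anti-IL-38. Replicates 2 and 5 of the anti-IL-38 group, at 32.4 and 30.2 CPM, set the high end, isotype replicate 5 the low end, and the groups overlapped. The same 2 anti-IL-38 tumors had the highest basal and myoepithelial marker sums (1961 and 1189.8 CPM), whose part in this was not tested. The log2 difference was 1.56 ± 0.58 (SE, n = 6 and 5), with an adjusted p of 0.425 in limma. Col15a1, a multiplexin of vessel and muscle basement membranes, was at 25.3, 28.1, 17.9, 26.7 and 13.8 CPM with isotype control and at 21.6 to 51 (median 29.7) CPM with anti-IL-38, a log2 difference of 0.61 ± 0.24 with an adjusted p of 0.432. For Col5a2, given above by tumor, the difference was 0.67 ± 0.30 with an adjusted p of 0.465, and without isotype replicate 5 it was 0.38.

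By class, medians of the log2 difference were 0.53 for the 5 type IV chains tested, 0.41 for 4 beaded filament chains, 0.37 for 6 FACIT chains and 0.25 for 11 fibrillar chains. It was 0.63 for 4 transmembrane and 0.50 for 2 multiplexin chains, 0.16 for Col7a1, and −0.14 for 3 network-forming short chains. Marker lists of several cell types had medians above 0 as well, of 0.47 for 12 fibroblast markers that are not collagens, 0.70 for 6 luminal epithelial, 0.73 for 8 basal and myoepithelial and 0.61 for 6 pericyte markers, and their part in the collagen differences was not tested. Among the main stromal chains, the differences were 0.31 ± 0.33 for Col1a1, 0.47 ± 0.35 for Col3a1 and 0.51 ± 0.28 for Col6a3, with adjusted p of 0.743, 0.626 and 0.522. Without isotype replicate 5 they were 0.12, 0.21 and 0.50, and without isotype replicate 2 Col6a3 was at 0.27. Of 60 other genes of collagen assembly, binding and breakdown, 56 were tested and 0 passed the adjusted p, with 8 higher and 3 lower at an unadjusted p under 0.05 (5.61 and 4.91% of all genes). Examples are Pcolce, which speeds removal of the procollagen end, at 424 ± 109 against 266 ± 87.2 normalized counts (log2 difference 0.68, adjusted p = 0.42), and Mmp8, a collagenase of neutrophils, at 3863 ± 766 against 5317 ± 1195 normalized counts (log2 difference −0.46, adjusted p = 0.425). The 3 lower genes were 1 receptor and 2 collagen-degrading enzymes, and the 8 higher ones were 3 of 22 for chain modification and folding, 2 of 6 for procollagen trimming, 1 of 5 for crosslinking and 2 of 9 receptors. Among the receptors, Ddr1, a collagen-binding kinase of epithelium, was at 3671 ± 776 against 2552 ± 503 normalized counts (log2 difference 0.52, adjusted p = 0.417).

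**Figure D3:**
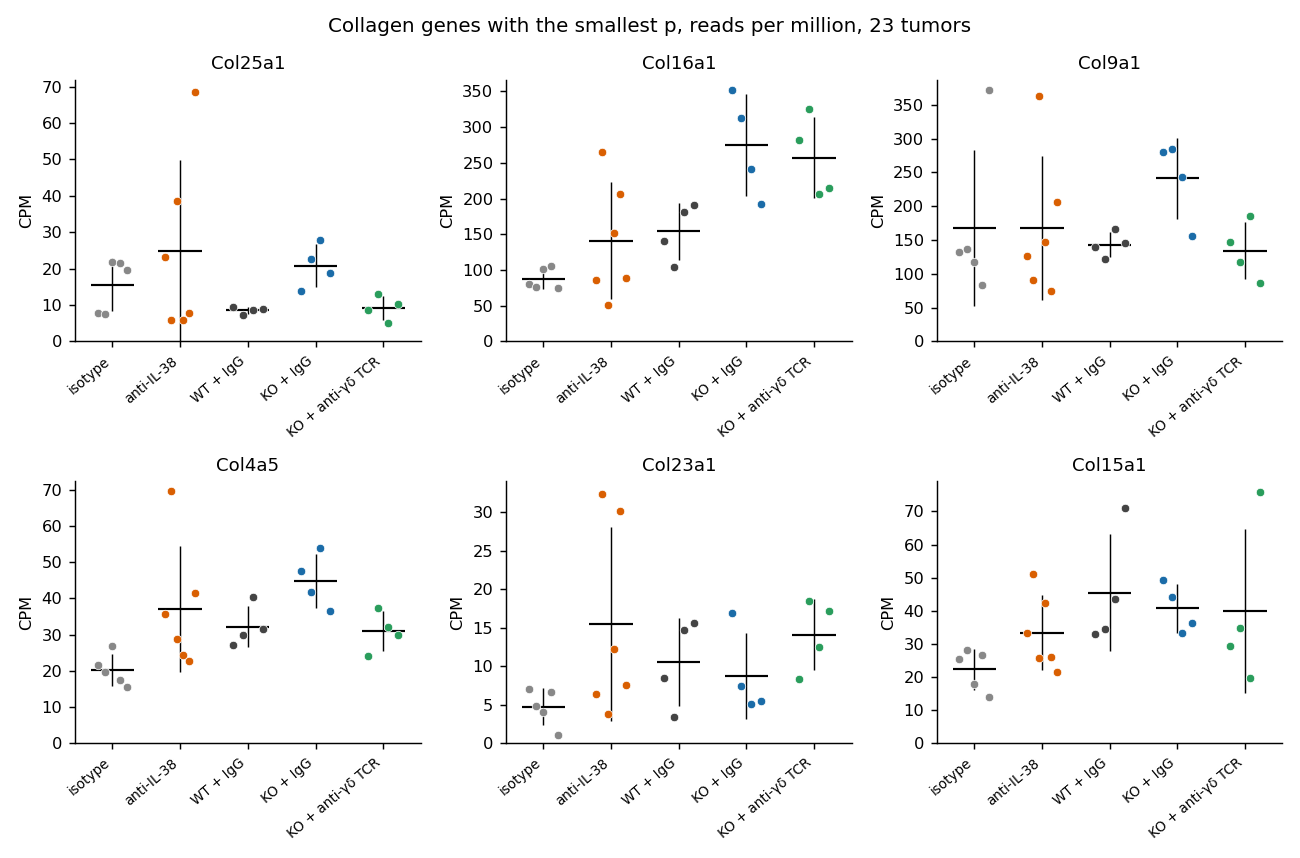
CPM (y axes, linear from 0) of 6 collagen genes in each of 23 tumors (points) by group (x axis), with the mean (bar) and SD (line, drawn only above 0). The 4 KO + IgG tumors lie above the 4 WT + IgG tumors for Col25a1 (13.8 to 28.0 against 7.18 to 9.57 CPM) and just above them for Col16a1 (192 to 351 against 104 to 191 CPM).

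The comparison of genotypes asks how tumors of IL-38 KO mice differed from WT tumors under the same control antibody. Type IX, XVI and XXV collagens had the smallest p, all higher in KO tumors, while type I and III chains differed by at most 0.22 on the log2 scale. Of 38 collagens tested in 4 against 4 tumors, 0 passed an adjusted p of 0.05 in limma, beside 0.00604% of 16563 genes, and 0 in edgeR (0% of all genes). DESeq2 on whole reads called 3, all higher (1.8% of all genes in either direction). At an unadjusted p under 0.05 in limma, 5 collagens were higher and 0 lower, against 6.73% of all genes higher and 5.4% lower. For 2 collagens, Col25a1 and Col16a1, every KO tumor was above every WT tumor, a separation that 3.66% of all genes showed in this direction and 3.41% in the other.

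Col25a1, a transmembrane collagen known from neurons, was at 9.57, 7.18, 8.68 and 8.78 CPM in WT + IgG and at 13.8, 22.5, 28 and 18.9 CPM in KO + IgG. WT tumors were close together and all KO tumors lay above them. The mean was 248 ± 71.7 against 99.8 ± 9.54 normalized counts (SD, n = 4 each) for KO against WT, a log2 difference of 1.26 ± 0.22 (SE). The adjusted p was 0.151 in limma and 0.000208 in DESeq2, and the exact permutation p of 0.029 is the smallest that 4 against 4 allows. Without KO + IgG replicate 4 the difference was 1.28, with an adjusted p of 0.0923. In the neutralization experiment Col25a1 varied from 5.77 to 68.5 CPM with anti-IL-38 and from 7.58 to 21.7 CPM with isotype control, so that 2 tumors of WT mice given anti-IL-38 were above every KO tumor.

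Col9a1, a type IX chain that decorates cartilage fibrils, was at 140.2, 121, 167 and 145 CPM in WT + IgG and at 280.3, 285, 244 and 156 CPM in KO + IgG. Replicates 1 to 3 of KO were well above all WT tumors and replicate 4, the library that stood apart, lay within the WT range. The log2 difference was 0.75 ± 0.19 (SE), with an adjusted p of 0.21 in limma and 0.0102 in DESeq2. Without KO replicate 4 it was 0.93, with an adjusted p of 0.0421 in limma (0.0431% of all genes called) and 0.0473 in edgeR (0.0616% of all genes called). Its partner chains showed log2 differences of 0.71 ± 0.30 for Col9a2 and 0.25 ± 0.29 for Col9a3, with adjusted p of 0.377 and 0.746.

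Col16a1, a FACIT chain of skin, vessel and intestinal matrix, was at 141, 104, 182 and 191 CPM in WT + IgG and at 351, 314, 242 and 192 CPM in KO + IgG. Replicate 4 of KO, at 192.3 CPM, was barely above WT replicate 4, at 191.2 CPM, and the other 3 KO tumors were clear of all WT tumors. The log2 difference was 0.86 ± 0.22, with an adjusted p of 0.226 in limma and 0.0170 in DESeq2. Without KO replicate 4 it was 1.01, with an adjusted p of 0.0923 in limma. Isotype control tumors, also of WT mice, read 74.4 to 106 CPM of Col16a1. Col4a5 was at 27.1, 29.9, 40.3 and 31.6 CPM in WT + IgG and 47.5, 41.8, 53.9 and 36.5 CPM in KO + IgG, a log2 difference of 0.51 ± 0.17 with an adjusted p of 0.312. Its difference without KO replicate 4 was 0.59, with an adjusted p of 0.174 in limma.

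The stromal chains gave small differences, of 0.08 ± 0.23 for Col1a1, 0.22 ± 0.28 for Col1a2, 0.11 ± 0.19 for Col3a1, 0.01 ± 0.20 for Col5a1 and 0.30 ± 0.23 for Col6a3 (log2, SE, n = 4 each). Without WT + IgG replicate 4 they were 0.33, 0.53, 0.25, 0.18 and 0.55. By class the median was 0.61 for 6 FACIT chains, 0.08 for 11 fibrillar chains, 0.10 for 6 type IV chains and 0.02 for 5 beaded filament chains. Over all 38 it was 0.10, with 26 above 0 (50.6% of all genes), and it changed sign to −0.02 without WT + IgG replicate 2. Of the 56 other collagen pathway genes tested, 0 passed the adjusted p, with 9 higher and 0 lower at an unadjusted p under 0.05 (6.73 and 5.4% of all genes). Without KO + IgG replicate 4, 0 of the 56 passed the adjusted p in limma (0.0431% of all genes). Loxl2, a crosslinking oxidase, was at 251 ± 21.7 against 155 ± 22.3 normalized counts (log2 difference 0.70, adjusted p = 0.21), P3h2, a prolyl hydroxylase of basement membrane chains, at 477 ± 163 against 256 ± 48.3 normalized counts (log2 difference 0.85, adjusted p = 0.256) and P4ha2, a subunit of the hydroxylase that makes the helix stable, at 175 ± 67.5 against 83.5 ± 30.6 normalized counts (log2 difference 1.04, adjusted p = 0.286). Skeletal muscle markers summed to 2.78 to 73.4 CPM in WT + IgG and 13.3 to 422 CPM in KO + IgG, and adipocyte markers to 135 to 233 and 36.3 to 151 CPM; their part in these differences was not tested.

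**Figure D4:**
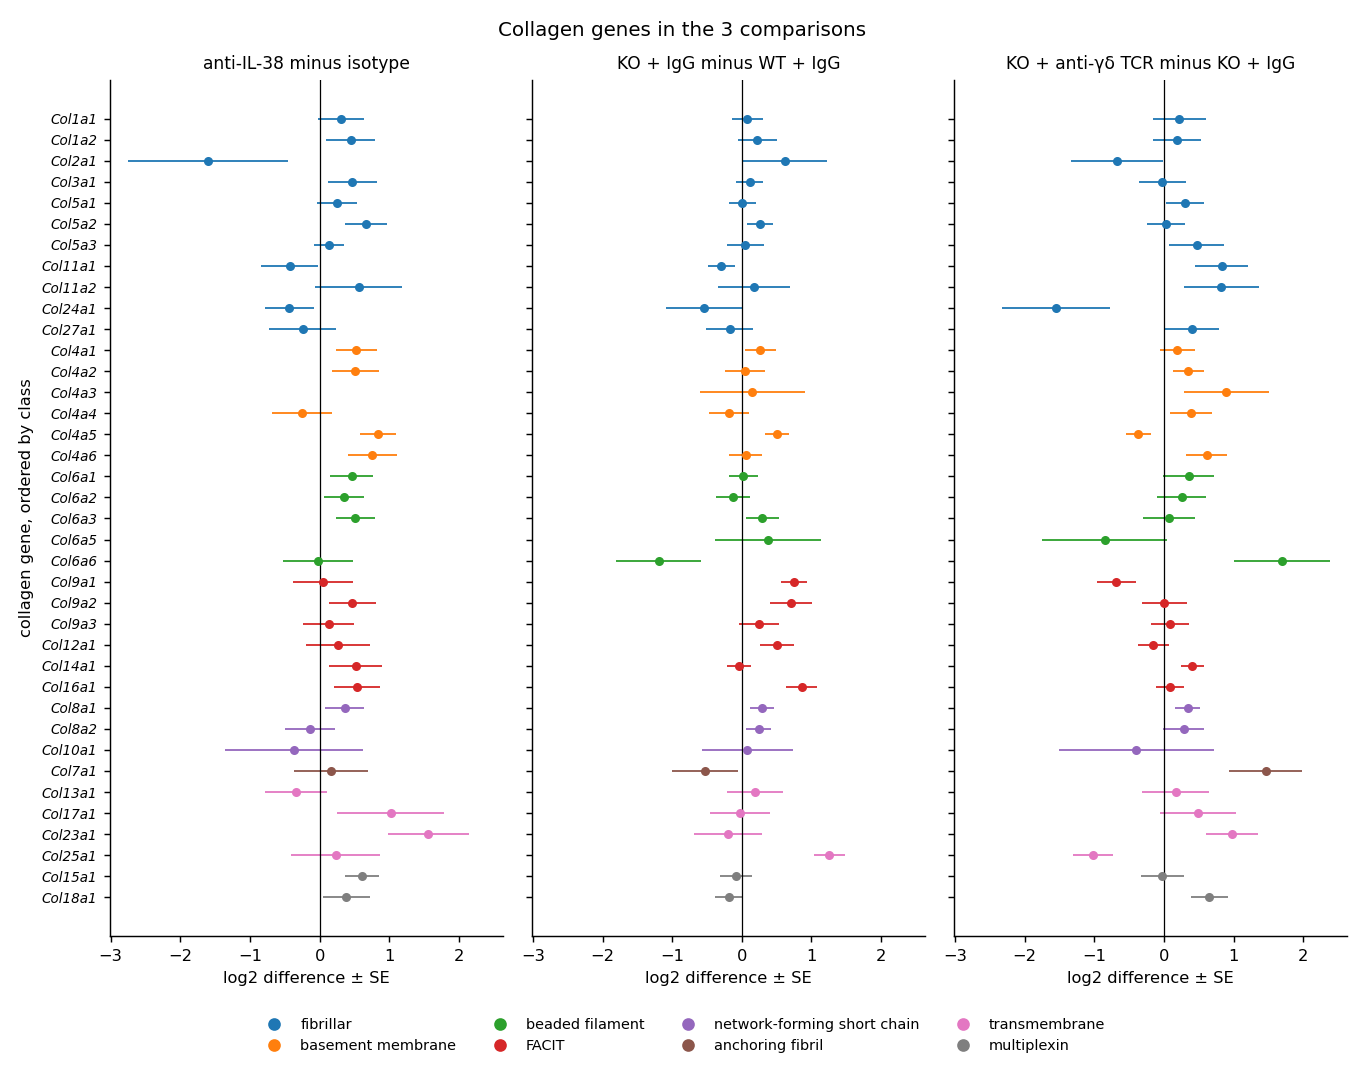
Log2 difference with its SE (x axes, limma on log2 of the normalized count plus 1) of each collagen gene tested (y axis, ordered and colored by class) in the 3 comparisons. Col25a1 stands at 1.26 in KO against WT and at −1.02 in the blockade, and the fibrillar, type IV and beaded filament chains lie mostly to the right of 0 in the neutralization panel.

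Blockade of the γδ TCR in IL-38 KO mice asks what depended on signaling of this receptor. Col25a1 and Col9a1 had lower means with the antibody, and Col7a1, Col23a1, Col6a6, Col18a1 and Col14a1 higher ones, but none passed the adjusted p in limma. Col9a1 was at 832 to 2104 normalized counts with the antibody and at 2257 to 2518 in replicates 1 to 3 of KO + IgG. Replicate 4 of KO + IgG, at 1486 normalized counts, lay within the blockade range. The 8 libraries also differ in how their reads are distributed, since all 4 KO + anti-γδ TCR libraries and only replicate 4 of KO + IgG have the raised share of pseudogene reads. Without replicate 4 of KO + IgG, treatment and that difference cannot be told apart. Of 38 collagens tested, 0 passed an adjusted p of 0.05 in limma or edgeR (0% of 16481 genes each) and 1, Col25a1, in DESeq2 (6.25% of all genes). At an unadjusted p under 0.05, 5 collagens were higher and 2 lower, against 12.7 and 9.0% of all genes, and the median over the 38 was 0.24, with 28 above 0 (51.9% of all genes). No collagen separated the groups in normalized counts, which 4.57% of all genes did upward and 4.98% downward. Without KO + IgG replicate 4, limma called 14.3% of all genes and 0 of the 38 collagens.

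Col25a1 was at 13.8, 22.5, 28 and 18.9 CPM in KO + IgG and at 8.61, 13, 5.1 and 10.3 CPM in KO + anti-γδ TCR. In CPM every blockade tumor was below every KO + IgG tumor, and in normalized counts the groups overlapped. The closest tumors in CPM were at 13 and 13.8. Gm42418 took 11.6 to 20.1% of the blockade reads and 2.82 to 11.3% of the KO + IgG reads, which enter the CPM totals. The mean was 93.8 ± 28.6 against 190.1 ± 56.4 normalized counts (SD, n = 4 each) for anti-γδ TCR against IgG, a log2 difference of −1.02 ± 0.29 (SE). The adjusted p was 0.0786 in limma and 0.0291 in DESeq2, and without KO + IgG replicate 4 it was 0.0571 in limma and 0.0392 in edgeR, where 14.3 and 14.4% of all genes passed. The KO + IgG tumors are the same ones as in the comparison of genotypes, so the 2 differences of Col25a1 are not independent of each other.

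Col7a1, the anchoring fibril chain, was at 22.9, 12, 3.21 and 12.8 CPM in KO + IgG and at 14.2, 42.3, 29.8 and 22.9 CPM in KO + anti-γδ TCR. KO + IgG replicate 3 was lowest and the groups overlapped. The log2 difference was 1.46 ± 0.53, with an adjusted p of 0.138, and without that tumor it was 0.92. WT tumors read 3.68 to 26.8 CPM with isotype control, 4.51 to 27.5 CPM with anti-IL-38 and 9.98 to 19.9 CPM with IgG.

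Col23a1 was at 16.9, 7.48, 5.1 and 5.45 CPM in KO + IgG and at 8.37, 18.5, 12.4 and 17.2 CPM in KO + anti-γδ TCR, a log2 difference of 0.97 ± 0.37 with an adjusted p of 0.159. Col6a6, an alternative type VI chain, was at 2.93, 2.24, 0.252 and 1.62 CPM in KO + IgG and at 1.5, 5.37, 6.06 and 5.46 CPM in KO + anti-γδ TCR, a log2 difference of 1.69 ± 0.69 with an adjusted p of 0.183, which was 1.03 without KO + IgG replicate 3. Blockade replicate 1 lay within the KO + IgG range for both genes. Basal and myoepithelial markers, which accompany Col7a1 and Col17a1 in epithelium, summed to 248 to 423 CPM in KO + IgG and 237 to 709 CPM in KO + anti-γδ TCR, and their part in these values was not tested.

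The differences of the type I, III and VI chains Col1a1, Col1a2, Col3a1 and Col6a3 moved with 1 tumor. Over 4 against 4 tumors the log2 difference was 0.22 ± 0.38 for Col1a1, 0.18 ± 0.35 for Col1a2, −0.02 ± 0.34 for Col3a1 and 0.08 ± 0.38 for Col6a3 (SE). Without KO + anti-γδ TCR replicate 4 these were −0.20, −0.20, −0.40 and −0.38. Col6a6, also a type VI chain, was at 1.58 without it. The median over the 38 collagens was then 0.11. Of the 56 other collagen pathway genes tested, 0 passed the adjusted p, with 8 higher and 3 lower at an unadjusted p under 0.05 (12.7 and 9.0% of all genes). Without KO + IgG replicate 4, 7 of the 56 passed the adjusted p, where limma called 14.3% of all genes. Bmp1, the procollagen C-proteinase, was at 337 ± 99.7 against 157 ± 25.4 normalized counts (log2 difference 1.05, adjusted p = 0.0657) and Creb3l1, a transcription factor for type I collagen in bone, at 469 ± 129 against 254 ± 52.9 normalized counts (log2 difference 0.87, adjusted p = 0.0657). Without KO + IgG replicate 4 these differences were 1.14 and 0.83 (adjusted p = 0.012 and 0.0386 in limma). In that fit treatment and library set cannot be told apart. The collagenase Mmp13 was at 91.8 ± 36.8 against 972 ± 629 normalized counts (log2 difference −2.90, adjusted p = 0.0699). Mmp8 had a median of 0 with anti-γδ TCR and at most 53.9 normalized counts, against 69.6 to 2484 with IgG (adjusted p = 0.0657). In CPM, KO + IgG replicate 4 read 9.28 for Mmp13 and 7.31 for Mmp8, while replicates 1 to 3 read 122 to 170.4 and 198 to 268. For Mmp13 that library lay within the blockade range of 3.99 to 12.9 CPM, and for Mmp8 just above its maximum of 5.57 CPM, so the low values include an IgG library of the set that stood apart. Without it the log2 difference of Mmp13 was −3.85 (adjusted p = 9.34e-06 in limma), and treatment and library set cannot be told apart. Macrophage marker sums were 570 to 919 CPM with anti-γδ TCR and 724 CPM in KO + IgG replicate 4, against 1393 to 1871 CPM in replicates 1 to 3.

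Over both experiments, 10 tumors with IL-38 inhibited were compared with 9 controls, in a fit without a term for the experiment. The SDs of these pooled groups therefore include differences between the 2 experiments. Of 37 collagens tested, 0 passed the adjusted p in limma, as did 0% of 16352 genes, with 4 higher and 0 lower at an unadjusted p under 0.05 (6.42% of all genes higher, 4.13% lower). In edgeR and DESeq2 it was also 0 collagens (0.00612 and 0.422% of all genes). The median log2 difference of the 37 was 0.29, with 28 above 0 (50.6% of all genes), and ranged from 0.18 to 0.36 when 1 library was left out. Col4a5 had the smallest p, at 505 ± 179 against 309 ± 86.7 normalized counts (SD, n = 10 and 9), a log2 difference of 0.68 ± 0.19 with an adjusted p of 0.262. Its difference was 0.84 by antibody and 0.51 by knockout. An interaction term, which asks whether antibody and knockout acted unequally, had 0 of 37 collagens past the adjusted p in limma, edgeR or DESeq2 (0.00612, 0 and 0.0612% of all genes) and 0 at an unadjusted p under 0.05 (7.67% of all genes, 4.24% higher and 3.43% lower). The smallest was Col23a1, whose antibody effect exceeded the knockout effect by 1.76 ± 0.86 (log2, SE), with an adjusted p of 0.655.

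The control tumors of the 2 experiments, all WT, show how far collagens differ without IL-38 inhibition. WT + IgG tumors had 7 collagens higher and 1 lower than isotype control tumors at an unadjusted p under 0.05 (9.49 and 9.11% of all genes), and 0 of 36 passed the adjusted p in limma (0.0994% of 16099 genes) or edgeR (0.0683%). DESeq2 called Col15a1 and Col16a1 (4.61% of all genes). The median of the 36 was 0.33, with 25 above 0 (52.0% of all genes), and 18.6% of all genes passed the unadjusted p in either direction. Every WT + IgG tumor was above every isotype control tumor for Col15a1 (33, 34.6, 43.5 and 71 against 13.8 to 28.1 CPM), where 3.57% of all genes separated in this direction and 3.45% in the other. The log2 difference was 0.89 ± 0.26 for Col15a1, 0.68 ± 0.18 for Col16a1 and 0.87 ± 0.30 for Col3a1, with adjusted p of 0.132, 0.121 and 0.177. Antibody, start of treatment and cohort cannot be told apart here, and adipocyte markers, at 135 to 233 against 32.1 to 63.1 CPM, passed the test for 3 of 6 genes. At the unadjusted p, 7 of 12 fibroblast markers that are not collagens were higher and 1 lower (median log2 difference 0.76). Of 8 basal and myoepithelial markers 5 were higher and 0 lower (median 1.16), and of 6 macrophage markers 4 were lower and 0 higher (median −0.42). The part of these markers in the collagen differences was not tested.

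Chains that build one collagen moved together from tumor to tumor. Over 23 tumors, log2(CPM + 1) of Col1a1 and Col1a2 had a Pearson r of 0.936 and a Spearman rho of 0.908 (permutation p = 1e-05 for both, the smallest that 100000 permutations give; adjusted over 10 pairs 2e-05 and 3.33e-05). Leaving out the 2 tumors farthest from the median gave r = 0.894, and within experiments r was 0.910 over 11 neutralization tumors and 0.961 over 7 tumors of WT and KO with IgG without KO replicate 4. The permutation p for r within experiments was 0.00047 and 0.00126 (adjusted 0.00157 and 0.0095). Permutations did not keep groups or experiments apart, so p over 23 tumors also takes in differences between them. The 5 libraries that stood apart were too few for a value of their own.

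Type IV and VI pairs were also related over all 23 tumors. Col4a1 with Col4a2 had r = 0.898 and rho = 0.879 over 23 tumors (permutation p = 1e-05 for both, adjusted 2e-05 and 3.33e-05), 0.858 without the 2 farthest, and 0.959 and 0.832 within experiments. Col6a1 with Col6a2 had r = 0.812 and rho = 0.816 (permutation p = 1e-05 for both, adjusted 2e-05 and 3.33e-05), 0.727 without the 2 farthest, and 0.798 and 0.839 within experiments, of which the latter became 0.411 without the 2 farthest and rests on those. The long chain Col6a3 followed Col6a1 less closely, with r = 0.551 and rho = 0.513 (permutation p = 0.00643 and 0.0130, adjusted 0.00714 and 0.0145), 0.352 without the 2 farthest, and 0.50 and 0.771 within experiments, of which the latter became 0.301 without the 2 farthest and rests on those. Within experiments the permutation p for r of Col6a3 with Col6a1 was 0.116 and 0.0479 (adjusted 0.128 and 0.0798).

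Other pairs of fibrillar and basement membrane chains were related over all 23 tumors as well. Col5a1 with Col5a2 had r = 0.843 and rho = 0.720 (permutation p = 1e-05 and 0.00016, adjusted 2e-05 and 0.000283), but over the 7 tumors of the genotype comparison r was 0.664 and became −0.335 without the 2 farthest, so that there it rests on those tumors. For this pair the permutation p for r was 0.00115 in the neutralization tumors and 0.114 in the genotype tumors (adjusted 0.00288 and 0.143). Col1a1 with Col3a1 had r = 0.911 and rho = 0.734 (permutation p = 1e-05 and 0.00011, adjusted 2e-05 and 0.000275), 0.859 without the 2 farthest, and 0.950 and 0.890 within experiments. Col4a5 with Col4a6 had r = 0.642 and rho = 0.620 (permutation p = 0.00135 and 0.00225, adjusted 0.00171 and 0.00321), 0.421 without the 2 farthest, 0.785 in the neutralization tumors and 0.237 in the genotype tumors, where it became −0.408 without the 2 farthest. Within these experiments its permutation p for r was 0.00717 and 0.587 (adjusted 0.012 and 0.653).

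Type IX chains were related to each other, and no relation with type XI passed the test. Col9a1 had r = 0.629 and rho = 0.714 with Col9a2 (permutation p = 0.00137 and 0.00017, adjusted 0.00171 and 0.000283), and r = 0.651 and rho = 0.604 with Col9a3 (permutation p = 0.00108 and 0.00295, adjusted 0.00171 and 0.00369). Without the 2 farthest tumors these were 0.565 and 0.558, and within experiments they were 0.567 and 0.917 for Col9a2 and 0.700 and 0.748 for Col9a3, the last of which became 0.419 without the 2 farthest. In the neutralization tumors they fell to 0.167 and 0.341 without the 2 tumors farthest from the median, so there they rest on those. Within experiments the permutation p for r was 0.0671 and 0.0019 for Col9a2 (adjusted 0.0839 and 0.0095). For Col9a3 it was 0.0164 and 0.067 (adjusted 0.0234 and 0.0956). Col9a1 and Col11a1, which share cartilage fibrils, had r = −0.153 and rho = −0.174 (permutation p = 0.483 and 0.425), −0.190 and −0.240 within experiments. Without the 2 farthest tumors r was −0.194 over all, −0.317 in the neutralization tumors and −0.953 over the remaining 5 genotype tumors.

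**Figure D5:**
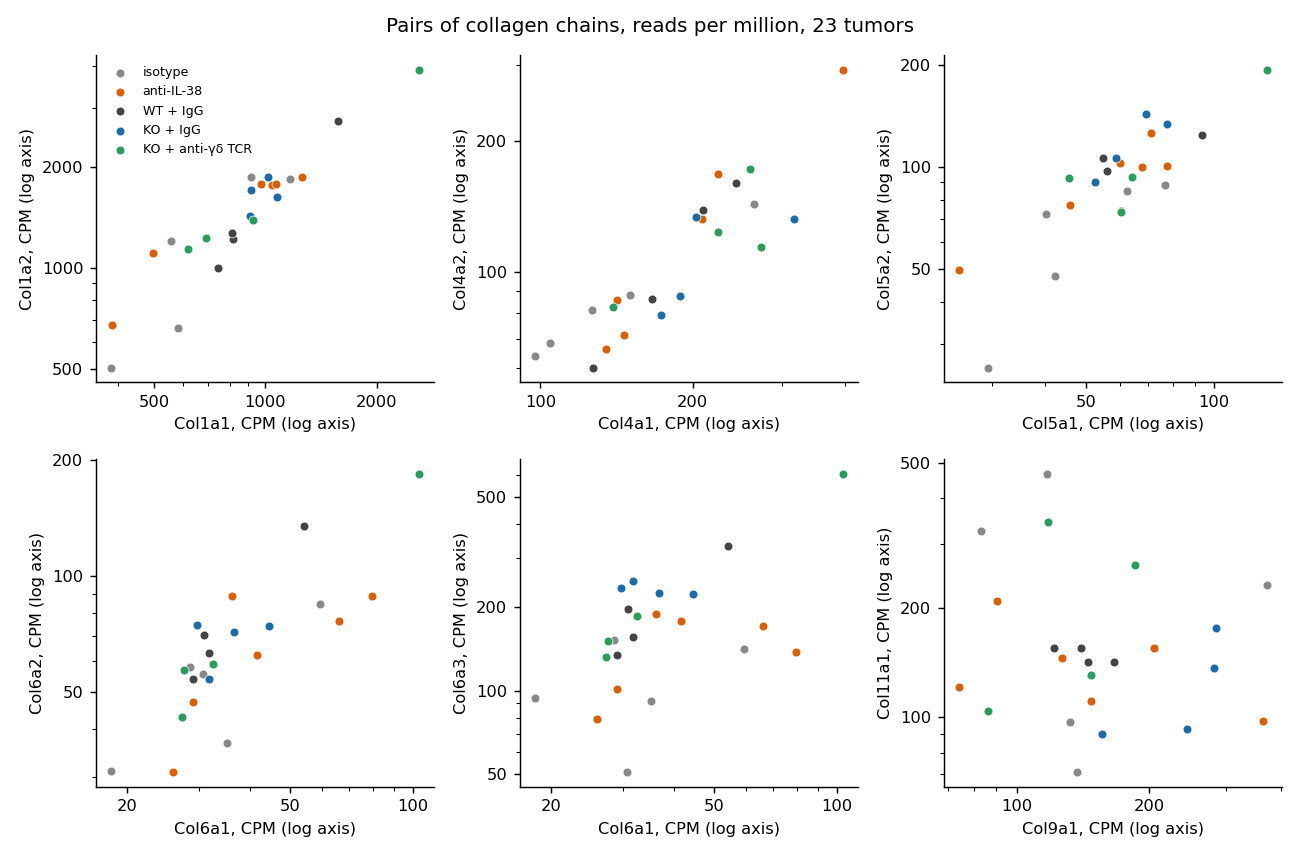
CPM of 2 chains against each other (both axes logarithmic) in 23 tumors (points, colored by group) for 6 pairs. Points follow a line for Col1a1 with Col1a2 (r = 0.936) and Col4a1 with Col4a2 (r = 0.898), and scatter for Col9a1 with Col11a1 (r = −0.153).

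The ratio of reads between 2 chains, in which the depth of the library cancels, was steady for type I. Its log2 had a mean of −0.72 ± 0.23 (SD, n = 23) for Col1a1 over Col1a2, while the SD of either chain alone was 0.63 and 0.65. For Col4a1 over Col4a2 it was 0.81 ± 0.25, for Col5a1 over Col5a2 −0.61 ± 0.32 and for Col6a1 over Col6a2 −0.78 ± 0.36. The ratio of Col6a3 to Col6a1 varied most, with geometric means of 3.09 with isotype control and 3.20 with anti-IL-38 against 5.46 in WT + IgG, 6.59 in KO + IgG and 5.43 in KO + anti-γδ TCR. In log2 these were 1.63 ± 0.74, 1.68 ± 0.56, 2.45 ± 0.22, 2.72 ± 0.32 and 2.44 ± 0.12 (SD). The means thus differed more between the 2 experiments than between the groups of either, which was not tested. Single tumors overlapped. Isotype replicates 3 and 5, at 2.42 and 2.36, and anti-IL-38 replicate 4, at 2.38, lay within the 2.22 to 2.99 of the γδ TCR experiment. Such ratios of 3′ reads are not ratios of molecules, since how well each 3′ end is captured differs between genes.

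Promoter sequence was at hand for the genes that moved together or led a comparison. RefSeq's windows on GRCm38.p6, a build other than the GRCm39 of the deposited reads, held 35 of the 44 collagen genes. Below are the 250 bases before the annotated start of Col1a2 and Col3a1, which stand for the type I and III pair, and of Col16a1 and Col25a1, which led the comparison of genotypes. They are written 5′ to 3′ on the gene's strand (plus for all), and capitals mark motif letters found on either strand. The CCAAT box was searched as CCAAT with its reverse complement ATTGG. The GC box was searched as GGGCGG with its reverse complement CCGCCC. For the TATA box the letters were TATAAA with the reverse complement TTTATA, and no motif overlaps another in these windows. The last line holds 30 bases, on the plus strand, at the CCAAT letters beside the start of Col4a2.
Col1a2, chr6:4505368-4505617: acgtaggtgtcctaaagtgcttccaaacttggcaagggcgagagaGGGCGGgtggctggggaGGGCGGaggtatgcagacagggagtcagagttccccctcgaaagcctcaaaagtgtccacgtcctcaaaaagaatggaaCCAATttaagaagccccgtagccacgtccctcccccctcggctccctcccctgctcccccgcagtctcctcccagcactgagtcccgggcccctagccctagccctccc
Col3a1, chr1:45311288-45311537: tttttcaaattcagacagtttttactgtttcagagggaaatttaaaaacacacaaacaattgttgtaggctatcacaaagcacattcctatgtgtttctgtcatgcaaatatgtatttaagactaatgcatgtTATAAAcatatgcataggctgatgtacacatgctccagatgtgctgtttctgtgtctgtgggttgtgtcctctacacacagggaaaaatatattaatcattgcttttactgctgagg
Col16a1, chr4:130047590-130047839: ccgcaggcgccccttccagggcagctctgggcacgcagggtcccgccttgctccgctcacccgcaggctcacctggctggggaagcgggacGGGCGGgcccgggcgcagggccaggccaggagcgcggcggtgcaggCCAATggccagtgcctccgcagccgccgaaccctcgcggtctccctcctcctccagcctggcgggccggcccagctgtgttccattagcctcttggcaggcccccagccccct
Col25a1, chr3:130180595-130180844: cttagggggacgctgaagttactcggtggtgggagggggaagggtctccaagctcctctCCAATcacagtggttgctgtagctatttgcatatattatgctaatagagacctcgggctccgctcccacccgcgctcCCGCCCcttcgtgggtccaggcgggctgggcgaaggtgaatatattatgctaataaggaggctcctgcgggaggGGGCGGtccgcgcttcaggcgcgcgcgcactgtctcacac
Col4a2, chr8:11312761-11312790: ccgaggagctccCCAATttgttggcgctgc

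Col1a2 held CCAAT at −109 and GGGCGG at −205 and −188, counted from the annotated start to the first letter on the strand shown. In Col3a1 the only match was TATAAA at −117, where none of the other letters occurred. Both members that separated KO from WT tumors held a CCAAT box and at least 1 GC box, at −113 and −159 in Col16a1 and at −191, −114 and −40 in Col25a1. Col4a1, on the minus strand, and Col4a2, on the plus strand, start 21 bases apart at positions 11312826 and 11312805 of chromosome 8. Over the 38 windows of the 35 collagen genes, 34.2% held a CCAAT box, 57.9% a GC box and 13.2% a TATA box in the 250 bases before the start. Of all 32851 windows in the table, 33.8, 32.7 and 12.4% did. A match describes letters and not a binding site.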

How the data were processed

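RNA of PyMT mammary tumors was sequenced from transcript 3′ ends (QuantSeq, single reads of 75 cycles). The submitters' processing notes name STAR, HTSeq and DESeq2 and the build GRCm39, without versions. The authors deposited normalized counts, a signal made of gene read counts divided by 1 size factor per library, in separate tables of 19 and 8 libraries, of which the 4 KO + IgG libraries stand in both with identical reads. Whole reads were recovered from the deposited signal steps for 100% of values within 0.0001%, and CPM was computed from them. For replicate 1 of WT + IgG, 1 read was worth 0.996, close to 1, and its values were whole multiples of that step.

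Symbols and gene types came from GENCODE M21 (GRCm38), which matched 47224 of 47643 identifiers. The members and the gene lists were chosen with earlier results of these data known. Comparisons were fitted with limma 3.58.1 in R 4.3.3 (empirical Bayes with a trend) on log2(normalized count + 1) of genes with a mean of at least 5, within 1 table, with Benjamini-Hochberg adjusted p over all genes tested at 0.05. Fold changes are on that scale, which understates those of low genes. Genes with an adjusted p from limma are named so in the text unless edgeR 4.0.16 (quasi-likelihood) or DESeq2 1.42.0, both run on whole reads, are stated. Single genes also had two-sided exact permutation tests. The text gives values by tumor for 17 chains that stand for the classes and for the 4 members with the smallest p in each comparison. Anti-IL-38 tumors are given as a range with a median. Several of these genes, among them Col15a1 and Col7a1, are given by tumor only in the groups of a comparison. The text may also give the 2 other pathway genes of each list with the smallest p. Labels give each sample as a separate tumor but not whether mice were shared, so p-values measure the spread between these tumors. Intervals of counting error are not given, and the limit of 3 reads covers counting error only. Alternatives were other pseudocounts (0.5 and 5), no filter or a mean of at least 20, TMM, fits with a replicate block or with a term for the experiment, and fits that omit 1 library at a time. Those chosen after seeing the data were edgeR without KO + IgG replicate 4 or KO + anti-γδ TCR replicate 4, and limma without both.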

Additional observations from a re-analysis of the deposited data

Results flagged for a closer look

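In 9 of 115 sets of 1 gene in 1 group, over 23 named collagen genes and 5 groups of 4 to 6 tumors, 1 tumor lay farther from its group than Dixon's criterion allows. Chance alone flags about 1 in 20 such sets, and the sets are not independent of each other because chains move together. 4 of the 9 concern KO + anti-γδ TCR replicate 4, which was at 2184 CPM for Col3a1 (571 to 790 CPM in the other 3 tumors), 104 CPM for Col6a1 (27.3 to 32.5), 184 CPM for Col6a2 (43.0 to 59.0) and 604 CPM for Col6a3 (132 to 185). WT + IgG replicate 4 stood out for Col1a1, at 1569 CPM against 746 to 815 CPM, and for Col6a1, at 54.3 CPM against 28.9 to 31.8 CPM. Isotype control replicate 5 was high for Col6a6, at 6.03 CPM against 1.30 to 2.02 CPM, and low for Col23a1, at 1.04 CPM against 4.10 to 7.07 CPM. KO + IgG replicate 1 was at 56.8 CPM for Col14a1 against 46.1 to 49.1 CPM.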

How the results depend on the processing

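Of the values recomputed under the alternatives for 82 results, 1282 were unchanged, 7 moved past the threshold and 70 changed sign. Another 7 were a changed number of collagens called or a median or level that moved by more than the spread. Unchanged meant the same sign and side of the threshold for a single gene, and the same number for collagens called. For a median or level it meant a value within the spread, even with another sign. An example is the median of −0.02 in KO against WT without WT + IgG replicate 2. Collagens called went from 0 to 3 in KO against WT, to 1 in the blockade and to 2 between control cohorts with DESeq2. In edgeR without KO + IgG replicate 4, 1 was called in KO against WT and 1 in the blockade (0.0616 and 14.4% of all genes). Leaving out 1 library gave 0 to 1 collagens called in KO against WT, the 1 being Col9a1 without KO + IgG replicate 4. The summed collagen level of KO + IgG was 5630 CPM with TMM-scaled totals against 5903 ± 98.8 CPM.

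Differences that changed sign when 1 library was left out, with their lowest and highest values, were Col7a1 (−0.16 to 0.59) and Col12a1 (−0.22 to 0.54) for the antibody, Col1a1 (−0.0132 to 0.33), Col4a2 (−0.20 to 0.26), Col5a1 (−0.0865 to 0.18), Col6a1 (−0.0921 to 0.23), Col6a2 (−0.27 to 0.15), Col7a1 (−0.91 to 0.0211), Col14a1 (−0.17 to 0.0918), Col15a1 (−0.22 to 0.15) and Col17a1 (−0.40 to 0.24) for KO against WT and Col1a1 (−0.20 to 0.48), Col1a2 (−0.20 to 0.39), Col3a1 (−0.40 to 0.16), Col5a2 (−0.23 to 0.20), Col6a1 (−0.0716 to 0.53), Col6a2 (−0.17 to 0.46), Col6a3 (−0.38 to 0.27) and Col15a1 (−0.36 to 0.21) for the blockade. For KO against WT, edgeR gave Col4a2 −0.0017, DESeq2 Col4a2 −0.0059 and Col5a1 −0.0002, and edgeR without KO + IgG replicate 4 Col1a1 −0.0105 and Col5a1 −0.0549. In the blockade, edgeR gave Col3a1 0.12 and Col15a1 0.0951, DESeq2 Col3a1 0.14 and Col15a1 0.12, TMM Col5a2 −0.0078, and edgeR without KO + IgG replicate 4 Col3a1 0.21 and Col15a1 0.0615. There, edgeR without KO + anti-γδ TCR replicate 4 gave Col1a1 −0.22, Col1a2 −0.24, Col5a1 −0.0313, Col5a2 −0.29, Col6a1 −0.13, Col6a2 −0.20 and Col6a3 −0.42, and limma without both replicates 4 gave Col1a1 −0.16, Col1a2 −0.11, Col5a2 −0.11, Col6a1 −0.10, Col6a2 −0.25 and Col6a3 −0.33. The cause of these changes was not tested.

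Same-numbered tumors did not deviate together (correlations −0.169 to 0.0746). The numbers were not taken as pairs, though this check cannot exclude a pairing. With a replicate block, 0 collagens were called in each comparison. The median log2 difference was 0.34 for the antibody, 0.0983 for KO against WT and 0.24 for the blockade. Over all genes, the block called 1 against 0 for the antibody, 0 against 1 for KO against WT and 39 against 16 between cohorts. With 4 tumors a group, and 6273049 to 8794202 reads in the libraries that stood apart, chains under a mean of 5 normalized counts were not tested.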
